A study of Mus musculus with 13 samples.

Results

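Promoter regions that carried an H3K27ac peak in some melanoma lines but not in others were described across 9 mouse melanoma cell lines. Members were selected on the peak calls themselves. Overlapping or touching peaks of the 9 lists were joined into 59668 regions. A region was kept when it lay on an autosome, was narrower than 10 kb, reached to within 1 kb of a transcription start site (TSS) annotated for a protein-coding gene and held peaks of 3 to 6 of the 9 lists. This left 3144 of 11470 autosomal promoter regions under 10 kb. These 3144 are called members or variable promoters, and a list is said to call a region in which it has a peak. Of the remaining promoter regions, 2503 were called in 1 or 2 lists and 5823 in 7 to 9 lists.

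Every line was established from 1 tumour of a transgenic mouse on a C57BL/6J background that expressed NRAS Q61K from the tyrosinase promoter and was heterozygous for Cdkn2a. Ecad lines kept the floxed E-cadherin gene Cdh1, and ΔEcad lines had lost it through a Cre recombinase driven by the tyrosinase promoter, which is active in melanocytes. Lines Ma_1007 and Ma_1181 were male Ecad, Ma_1014 and Ma_1039 female Ecad, Ma_1062 and Ma_1456 male ΔEcad, and Ma_1057, Ma_1064 and Ma_1069 female ΔEcad. The lists held 20741 to 41663 peaks, and promoters of at least 6 of 7 pigment cell marker genes were called in each list. Endothelial and immune marker promoters were called in 0 of 5 and 0 of 5 genes in every list, and fibroblast and keratinocyte ones in at most 1 of 5. The depth reached by each library is unknown, and a promoter missing from a list is one without a peak past the threshold of the peak caller.

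H3K27ac is acetylation of lysine on the tail of histone H3, laid down by the coactivators EP300 and CREBBP and removed by histone deacetylases. It marks nucleosomes that flank active promoters and enhancers. Promoters of housekeeping genes lie mostly in CpG islands, stretches rich in the dinucleotide CG, and tend to be marked in most cell types, whereas promoters of tissue-restricted genes are more often poor in CpG.

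To show what variable promoters look like, 250 bases before the TSS are printed for the first promoter, by mean strength, of each pattern that set groups of lines apart, and for 1 of the strongest members. Every CpG dinucleotide is in capitals. Coordinates given with these sequences are those of the printed windows, whereas calls refer to the member regions, which need not hold the window. Sequences were read 5′ to 3′ on the strand of the gene from GRCm38, and windows that held an annotated untranslated region were passed over. Mapkapk5 (chr5:121545906-121546155, minus strand) and Ifit3b (chr19:34607720-34607969, plus strand) were called in all 6 lines other than female ΔEcad and in none of the 3 female ΔEcad lines. Mapkapk5, a kinase activated by MAP kinases, has a CpG-rich promoter with 21 CpGs in 250 bases. Ifit3b, an interferon-induced gene, has 1. Both windows lie outside annotated genes.
Mapkapk5: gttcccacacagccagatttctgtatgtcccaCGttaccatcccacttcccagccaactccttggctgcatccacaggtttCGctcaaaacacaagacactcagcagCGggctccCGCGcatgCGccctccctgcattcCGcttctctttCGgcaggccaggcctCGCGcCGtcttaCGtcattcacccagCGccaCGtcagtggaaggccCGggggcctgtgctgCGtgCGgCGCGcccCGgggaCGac
Ifit3b: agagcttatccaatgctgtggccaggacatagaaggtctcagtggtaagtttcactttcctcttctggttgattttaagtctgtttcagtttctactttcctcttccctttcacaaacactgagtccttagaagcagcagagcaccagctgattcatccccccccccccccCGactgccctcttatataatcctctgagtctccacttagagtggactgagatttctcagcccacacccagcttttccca
Trip12 (chr1:84793552-84793801, minus strand), a ubiquitin ligase gene, was called in the 3 female ΔEcad lines and in no other. Its window, before the start of a shorter transcript, lies wholly in a coding exon of longer transcripts. Olfml1 (chr7:107567196-107567445, plus strand), an olfactomedin-like gene, was called in the 4 Ecad lines and in no ΔEcad line, and its window lies outside genes. Pnpla8 (chr12:44282323-44282572, plus strand), a phospholipase gene, was called in the 5 ΔEcad lines and in no Ecad line. Its window is intronic, before an internal start site, and lies outside the called region, chr12:44282717-44284087. These 3 windows held 4, 3 and 0 CpGs.
Trip12: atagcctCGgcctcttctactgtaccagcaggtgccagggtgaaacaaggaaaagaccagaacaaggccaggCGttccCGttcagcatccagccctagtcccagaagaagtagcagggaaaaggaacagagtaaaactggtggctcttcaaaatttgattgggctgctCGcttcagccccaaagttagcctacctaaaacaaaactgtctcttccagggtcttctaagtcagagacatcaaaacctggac
Olfml1: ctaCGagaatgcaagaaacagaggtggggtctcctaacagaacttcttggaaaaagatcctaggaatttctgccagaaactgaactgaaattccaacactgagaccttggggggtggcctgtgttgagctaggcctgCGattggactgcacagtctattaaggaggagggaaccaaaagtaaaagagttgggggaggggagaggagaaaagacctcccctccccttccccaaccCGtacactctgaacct
Pnpla8: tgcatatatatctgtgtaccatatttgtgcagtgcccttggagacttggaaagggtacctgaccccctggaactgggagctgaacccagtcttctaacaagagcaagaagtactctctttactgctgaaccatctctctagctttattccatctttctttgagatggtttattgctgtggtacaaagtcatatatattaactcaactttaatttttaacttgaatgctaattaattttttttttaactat
Cdadc1 (chr14:59597960-59598209, minus strand), a cytidine deaminase domain gene, was called in the 4 male lines and in no female line, with 13 CpGs. The gene 4930550C14Rik (chr9:53405036-53405285, plus strand) was called in the 5 female lines and in no male line, with 6 CpGs, and its window is intronic in an overlapping gene model. Cdk14 (chr5:5420313-5420562, minus strand), a cyclin-dependent kinase gene, was among the strongest members and had 3 CpGs.
Cdadc1: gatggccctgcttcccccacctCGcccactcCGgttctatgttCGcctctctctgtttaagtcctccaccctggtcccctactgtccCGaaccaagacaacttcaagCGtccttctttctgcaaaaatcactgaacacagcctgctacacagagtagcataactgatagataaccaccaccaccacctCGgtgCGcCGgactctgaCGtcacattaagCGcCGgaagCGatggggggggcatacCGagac
4930550C14Rik: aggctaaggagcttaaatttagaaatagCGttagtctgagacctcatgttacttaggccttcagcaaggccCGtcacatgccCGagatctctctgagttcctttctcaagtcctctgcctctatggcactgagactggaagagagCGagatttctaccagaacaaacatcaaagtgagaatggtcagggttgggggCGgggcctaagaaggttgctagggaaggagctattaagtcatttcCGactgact
Cdk14: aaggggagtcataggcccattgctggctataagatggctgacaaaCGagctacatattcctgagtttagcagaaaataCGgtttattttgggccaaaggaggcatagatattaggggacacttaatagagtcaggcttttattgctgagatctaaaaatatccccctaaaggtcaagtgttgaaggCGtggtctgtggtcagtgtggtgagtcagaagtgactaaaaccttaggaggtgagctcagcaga

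The share of variable promoters with a peak fell into levels that followed the groups of lines. It was 90.4% in Ma_1007 and 75.1% in Ma_1181, the male Ecad lines, and 66.7% in Ma_1014 and 63.4% in Ma_1039, the female Ecad lines. It was 53.7% in Ma_1062 and 56.0% in Ma_1456, the male ΔEcad lines. In the female ΔEcad group it was 17.2% in Ma_1057, 29.2% in Ma_1064 and 10.5% in Ma_1069. The female ΔEcad lines lay below every other line, and the male ΔEcad lines lay below every Ecad line. The rule fixed how many lists called a member, but not which ones. The shares are still made of the calls that chose the members. Under the limit of 6 lists, a promoter called in all 6 other lines is a member only when no female ΔEcad line calls it. Tests of these shares and of their overlap therefore describe the selected members and are no independent support. The size of the differences can depend on the limits of the rule.

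The female ΔEcad mean was 18.9% ± 9.49 (SD, n = 3) against 67.5% ± 13.6 (SD, n = 6) in the other lines, a difference of −48.6 percentage points. In an exact two-sided permutation test over the 84 choices of 3 lines, p = 0.0119, the smallest value they allow, and p = 0.0476 after adjustment over 4 tests. Without any 1 of the 6 other lines the difference was −47.9 to −53.0 points, and its adjusted exact p of 0.0571 to 0.0714 no longer passed. This group of lines was chosen with earlier results of these data known. ΔEcad lines called 33.3% ± 20.8 (SD, n = 5) of members and Ecad lines 73.9% ± 12.1 (SD, n = 4), a difference of −40.6 points (exact two-sided permutation p = 0.0238, adjusted p = 0.0476). With lists of equal length this difference was −31.6 points and its adjusted exact p was 0.0635, and when a peak had to cover 50% of a region its adjusted exact p was 0.0794. Female and male lines differed by −31.4 points, which did not pass (exact two-sided permutation p = 0.0952). The genotype difference was −46.1 points among females and −27.9 points among males. The difference between these 2 values was tested after the data were seen and did not pass (exact permutation of sex within genotype, p = 0.433). This permutation assumes no effect of sex in either genotype, so it does not test that difference alone.

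Sex and genotype groups shared more variable promoters within than between them, but not beyond the adjusted threshold. The mean Jaccard index of member calls, shared calls over calls in either list, was 0.415 within the 4 groups and 0.279 between them. In an exact one-sided permutation test over 1260 partitions p was 0.0635, with an adjusted p of 0.0847. Ma_1007 and Ma_1181 shared 2219 members (index 0.744) and Ma_1014 and Ma_1039 shared 1630 (0.663). Ma_1064 and Ma_1069 shared 128 (0.114), Ma_1057 and Ma_1069 shared 192 (0.284), and Ma_1064 and Ma_1007 shared 820 (0.279). Shared numbers and indices depend on how many members each list called. These were 2841 in Ma_1007, 918 in Ma_1064, 540 in Ma_1057 and 329 in Ma_1069, so such pairs are not directly comparable. Without 1 of the female ΔEcad lines the difference rose from 0.136 to between 0.158 and 0.231, with an adjusted exact p of 0.0381 in each case. Without 1 of the other 6 lines it fell to between 0.0329 and 0.0819, with adjusted exact p-values of 0.215 to 0.336.

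Variable promoters and variable distal regions behaved differently in the female ΔEcad lines. The distal regions, autosomal, under 10 kb and more than 1 kb from any protein-coding TSS, numbered 12830 in 3 to 6 lists. Ma_1057, Ma_1064 and Ma_1069 called 41.7%, 53.1% and 26.5% of them, against 33.8% to 76.1% in the other lines, so that only Ma_1069 lay below that range. In these 3 lines the share of promoters was 24.6, 23.9 and 16.0 points lower than that of distal regions. In the other 6 lines it was 7.25 to 41.3 points higher. The mean difference between promoter and distal shares was −21.5 ± 4.77 points (SD, n = 3) in female ΔEcad and 17.8 ± 12.5 points (SD, n = 6) in the other lines, with no overlap. This comparison was added after the data were seen (exact two-sided permutation p = 0.0119, the smallest that 84 choices allow), and the difference stayed between −34.0 and −44.4 points when any 1 line was left out. The female ΔEcad lists held 25628, 29263 and 20741 peaks and the other lists 24910 to 41663, and with lists of equal length the difference was −42.2 points. Female ΔEcad lists also called fewer of the promoter regions found in 7 to 9 lists, 89.7% in Ma_1057, 93.7% in Ma_1064 and 75.6% in Ma_1069, against 97.4% to 99.7% in the others.

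**Figure D1:**
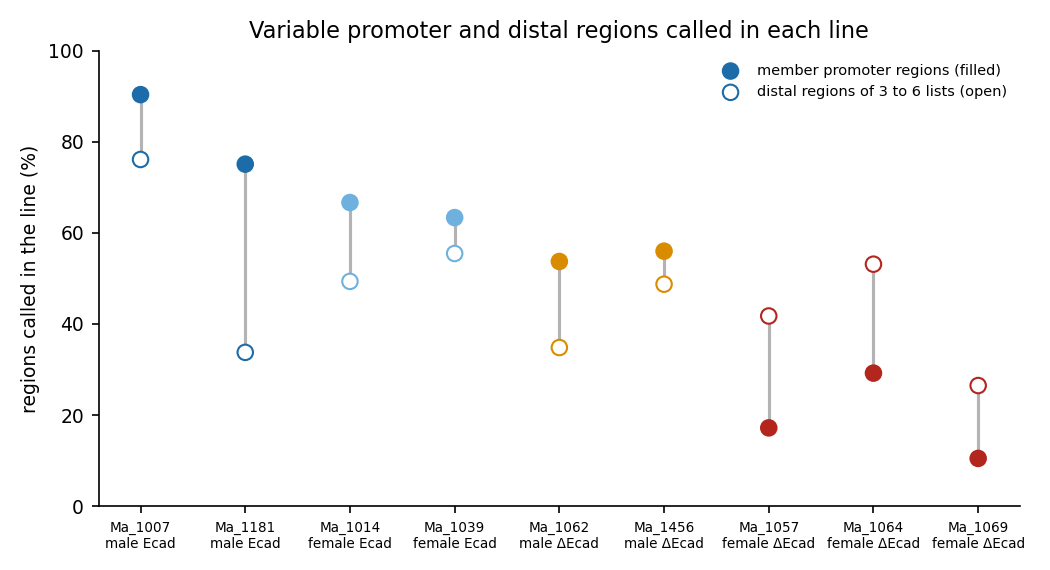
Share of the 3144 variable promoter regions (filled points) and of the 12830 distal regions found in 3 to 6 lists (open points) that were called in each line, in percent, coloured by sex and genotype. Filled points lie above open points in the 6 lines on the left and below them in the 3 female ΔEcad lines.

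Of 420 patterns that 3 to 6 of 9 lines can form, 273 occurred. The most frequent, with 474 members (15.1%), was a call in all 6 other lines and in no female ΔEcad line. Then came 159 members called in the 4 Ecad lines and Ma_1062, 139 called in the 4 Ecad lines only, 119 called in the 4 Ecad lines and Ma_1456, 105 called in Ma_1007, Ma_1181 and Ma_1014, and 84 called in Ma_1007, Ma_1181 and Ma_1062. None of these 6 patterns holds a female ΔEcad line. In all, 1893 members (60.2%) were called in no female ΔEcad list, 817 in 1, 332 in 2 and 102 (3.24%) in all 3. Of the distal regions found in 3 to 6 lists, 30.7% were called in no female ΔEcad list and 12.7% in all 3.

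**Figure D2:**
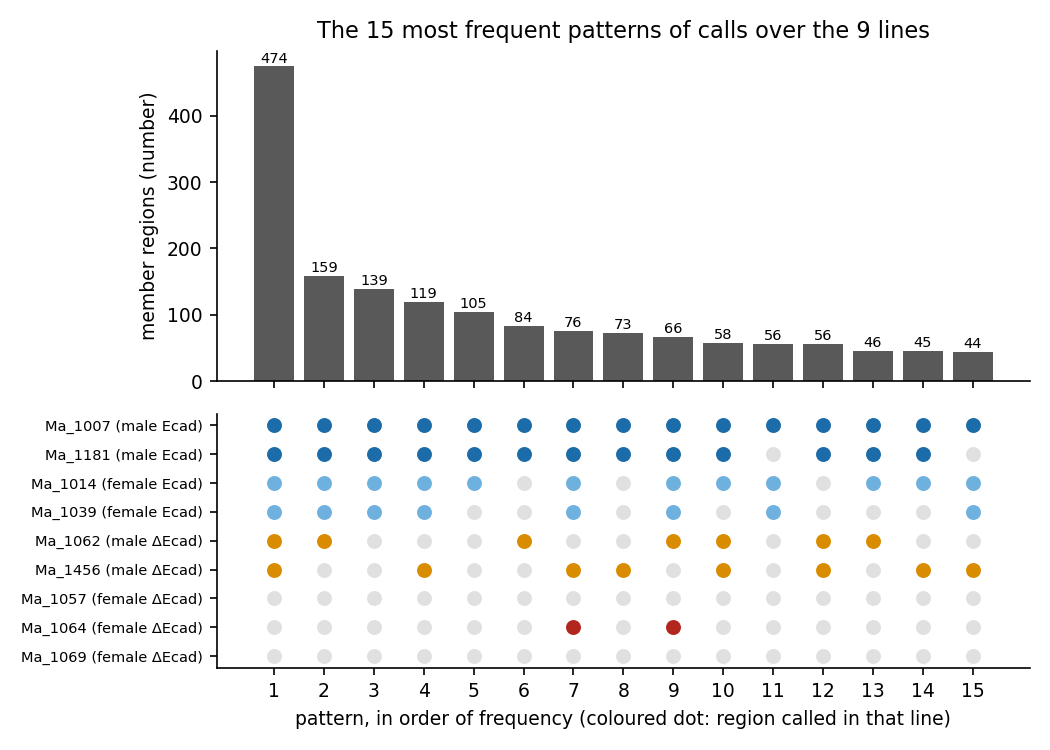
The 15 most frequent patterns of calls. Bars give the number of member regions, and coloured dots below mark the lines that called them (blue, Ecad; orange and red, ΔEcad). The first pattern, with 474 members, takes in every line but the 3 female ΔEcad lines, and of these only Ma_1064 appears among the 15.

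Promoters that set groups apart without exception are given beside the same count over all autosomal regions under 10 kb found in 3 to 6 lists, promoter and distal together. A call in all 6 other lines and no female ΔEcad line was found in 15.1% of members and in 4.76% of all 15974 such regions. The reverse, a call in the 3 female ΔEcad lines alone, was found in 5 members (0.159%) against 1.58% of all regions. The 4 Ecad lines and no ΔEcad line were called together in 139 members (4.42%) against 1.97%. The 5 ΔEcad lines and no Ecad line were called in 1 member (0.0318%) against 0.0125%. The 4 male lines alone were called in 56 members (1.78%) against 0.495%, and the 5 female lines alone in 1 member (0.0318%) against 0.0939%. These counts carry no test. With lists of equal length, the first 3 counts were 312, 12 and 69.

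Among the 474 promoters missing from the female ΔEcad lists, the strongest was that of Lgi4, which encodes a secreted protein that Schwann cells use in myelination. Strength is the percentile of the −log10 q of a peak within its own list, so that 100 is the strongest peak of the list. The Lgi4 promoter (chr7:31058839-31065120) stood at the 90.1st percentile in Ma_1007, 91.0 in Ma_1181, 83.1 in Ma_1014, 93.8 in Ma_1039, 93.5 in Ma_1062 and 92.6 in Ma_1456. It lay near the top of each of these lists and had no peak in the 3 female ΔEcad lines. Next came Ifit3b with 69.6 to 96.5, Csk, the kinase that restrains SRC family kinases, with 74.5 to 89.9, Cln8, an endoplasmic reticulum protein gene, with 63.0 to 88.8, and Mapkapk5 with 69.8 to 87.3. These 5 promoters thus lay in the upper part of all 6 lists that called them. Over the 474 members as a group the median percentile was 47.6.

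Of the 5 promoters called only in the 3 female ΔEcad lines, that of Trip12 was the strongest and was even across the lines, with percentiles of 79.1 in Ma_1057, 77.8 in Ma_1064 and 76.4 in Ma_1069. Naip2, a sensor of bacterial secretion system proteins, stood at 63.4, 54.2 and 57.8. Schip1, Tnk2, which encodes a non-receptor tyrosine kinase, and Trak2, which encodes an adaptor that links mitochondria to kinesin, ranged from 4.44 to 66.1. The called regions of Schip1 and Trak2 held an annotated start site. Those of Trip12, Naip2 and Tnk2 did not, and only lay within 1 kb of one. Trip12 and Trak2 have another promoter region that was called in 7 or more lists.

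The 139 promoters called in the 4 Ecad lines alone were led by Olfml1, with percentiles of 61.4 in Ma_1007, 80.7 in Ma_1181, 68.8 in Ma_1014 and 77.2 in Ma_1039. Rex1bd, Meaf6, Rybp and Pank4 followed, with values between 50.7 and 82.8. Meaf6 is a subunit of MYST histone acetyltransferase complexes, and Rybp belongs to a variant Polycomb complex that ubiquitinates histone H2A. The 1 promoter called in the 5 ΔEcad lines alone, an internal start site of Pnpla8, stood between 31.2 and 79.1. Its gene also has a promoter region called in 7 or more lists.

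Of the 56 promoters called in the 4 male lines alone, Msantd3 was the strongest, at 71.2 in Ma_1007, 46.9 in Ma_1181, 55.7 in Ma_1062 and 77.1 in Ma_1456. Runx2, the master regulator of bone-forming cells, varied most among the 5 leading members, from 10.4 in Ma_1007 to 92.0 in Ma_1181. Cdadc1, Wbp1l and Ppih lay between 20.6 and 71.7. The single promoter called in the 5 female lines alone, 4930550C14Rik, stood between 5.11 and 66.4.

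Of the 12 strongest members, 4 lay on chromosome 6 between 30 and 39 Mb. Zc3hav1, which encodes an antiviral RNA-binding protein, stood at 89.0 in Ma_1007, 99.5 in Ma_1014, 97.3 in Ma_1039 and 97.0 in Ma_1062 and was not called in the other 5 lines. Ubn2, a subunit of the histone H3.3 chaperone complex, Copg2, a coatomer subunit, and Cyren, a regulator of DNA end joining, had values of 90.2 or more in Ma_1014, Ma_1039 and Ma_1062 as well. None of the 4 was called in Ma_1456, Ma_1057 or Ma_1064. The whole 9 Mb held 297, 247, 213 and 241 peaks in Ma_1007, Ma_1014, Ma_1039 and Ma_1062, and 73, 90 and 135 in Ma_1456, Ma_1057 and Ma_1064. It held 131 peaks in Ma_1181, which called Ubn2, Copg2 and Cyren, and 170 in Ma_1069, which called Cyren alone. By share of the list, the 9 Mb held 0.967% of peaks in Ma_1062, 0.860% in Ma_1014 and 0.820% in Ma_1069. It held 0.730% in Ma_1039, 0.713% in Ma_1007 and 0.509% in Ma_1181. The lowest shares were 0.461% in Ma_1064, 0.351% in Ma_1057 and 0.241% in Ma_1456. The median percentile of those peaks was 70.6 to 74.2 in Ma_1014, Ma_1039 and Ma_1062 and 46.6 to 60.3 in the other 6 lines. It was lowest, at 46.6, in Ma_1007, although that line called all 4 promoters at 84.1 to 93.0. Whether copy number of this stretch differed between lines was not tested.

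The other strong members were called in scattered sets of lines. Cdk14 reached 99.8 in Ma_1456, 90.7 in Ma_1057, 95.2 in Ma_1064 and 87.0 in Ma_1007 and was missing in the other 5 lines. Spaar, the gene of a small polypeptide that restrains mTORC1, stood at 97.9 in Ma_1456, 70.3 in Ma_1057 and 93.8 in Ma_1064. Mill2, an MHC class I-like gene, and Olfr95, an olfactory receptor gene, were called in 3 lines each, both including Ma_1014 and Ma_1039.

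**Figure D3:**
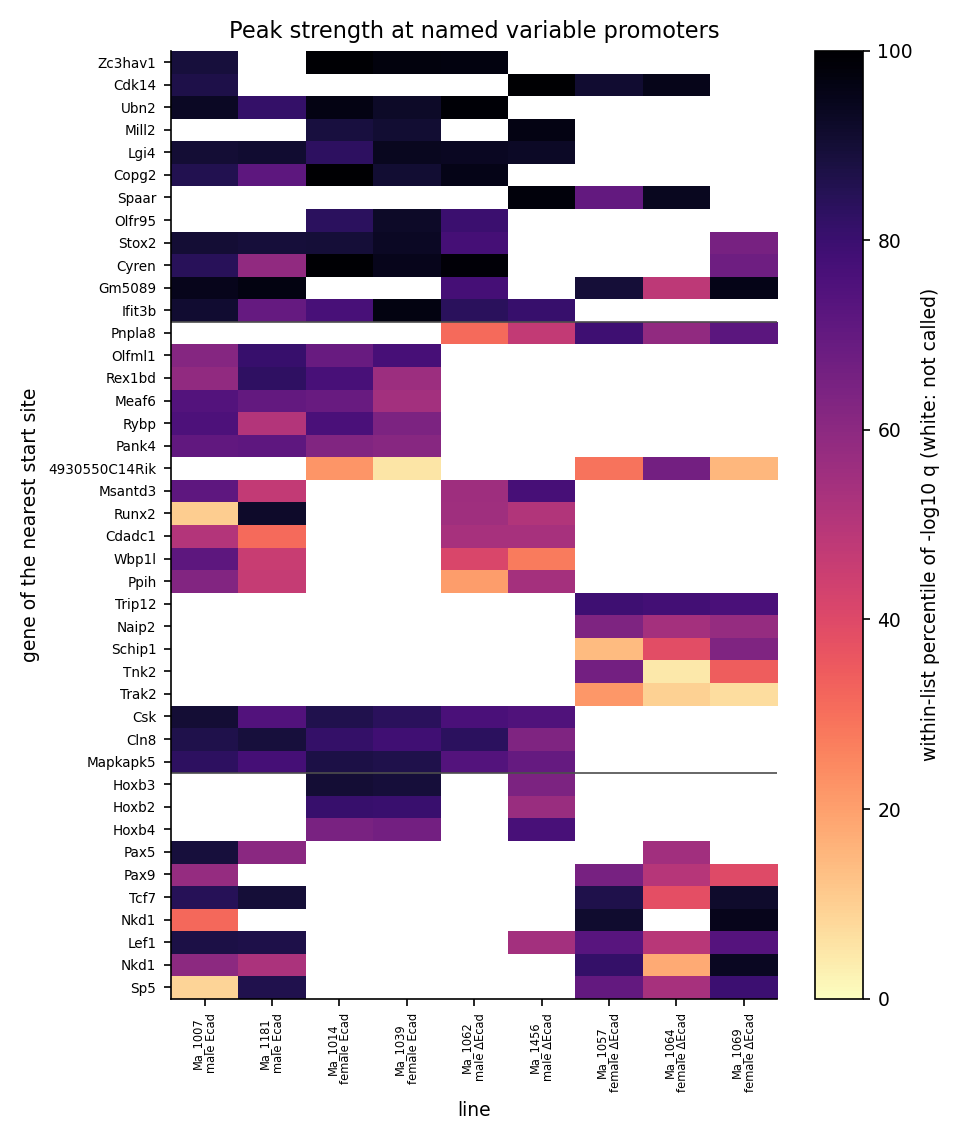
Percentile of −log10 q within each list at named variable promoters, with white for lines without a peak. Lines between rows part the strongest members (top), those that set groups apart (middle) and homeobox and Wnt pathway members (bottom). Dark cells beside white ones in the top part are promoters near the top of some lists and missing from others.

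Peaks at variable promoters were of middling strength. The median percentile over all calling lists was 39.9, with quartiles of 23.6 and 57.4. It was 28.9 for promoter regions found in 1 or 2 lists and 69.8 for those found in 7 to 9. Within the members it went from 34.0 in 3 lists to 36.03, 38.8 and 45.4 in 4, 5 and 6 lists, and the median width of a region went from 971.5 to 1465.5 bp. Per line, the median percentile of called members was 55.7 in Ma_1007 and 42.1 in Ma_1181 and lay between 31.5 and 37.4 in the other 7 lines. The female ΔEcad lines, at 31.7, 36.3 and 37.0, overlapped the other lines here, although they called far fewer members. These strengths come from the peaks that chose the members and carry no test.

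**Figure D4:**
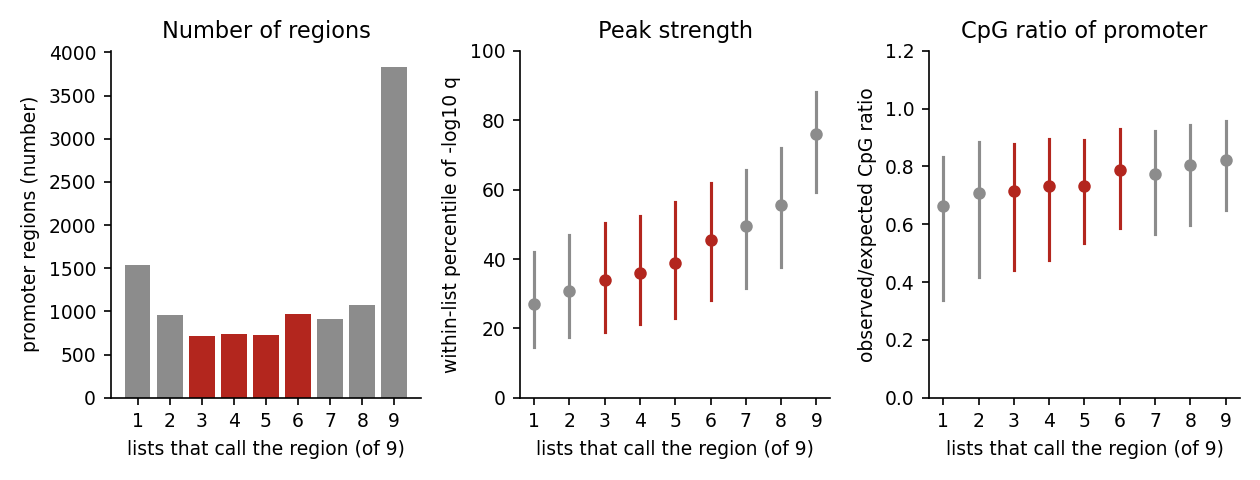
Autosomal promoter regions under 10 kb by the number of lists that call them, with variable promoters (3 to 6 lists) in red. Bars count regions. Points and vertical lines give the median and quartiles of the within-list percentile of −log10 q and of the observed over expected CpG ratio, both of which go up from left to right apart from small steps.

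The sequence around the TSS, which the rule did not use directly, differed between members by the lines that called them. The CpG ratio is the number of CpGs over that expected from the C and G content, here from 250 bases before to 50 after the nearest TSS. Its median was 0.749 over all members, 0.678 for regions in 1 or 2 lists and 0.814 for regions in 7 to 9 lists. Among members, it was 0.8291 for the 474 called in all other lines and no female ΔEcad line, 0.555 for the 434 called in 2 or 3 female ΔEcad lines and 0.343 for the 102 called in all 3. A ratio of at least 0.6, the usual mark of a CpG island, was found in 83.1%, 47.2% and 33.3% of these 3 sets, and in 68.4% of all members. Taken line by line, the median ratio of called members was 0.636, 0.667 and 0.555 in Ma_1057, Ma_1064 and Ma_1069 and 0.747 to 0.789 in the other 6 lines. The means differed by −0.147, in a test added after the data were seen (exact two-sided permutation p = 0.0119, the smallest that 84 choices allow). Under the rule, members called in all 3 female ΔEcad lists cannot be called in all other lines, so these sets also differ in the number of lists. The median ratio was 0.715 for members in 3 lists and 0.788 for those in 6. What part the limits of the rule have in these contrasts was not tested.

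Short sequence motifs were counted on both strands of the same 300 base windows, in which a match is a description and not a binding site. The GC box GGGCGG occurred in 73.0% of the 474 promoters missing from female ΔEcad lists and in 46.1% of the 434 called in 2 or 3 of them, against 61.5% of all members and 43.5% of all annotated TSS windows. The ETS motif CCGGAAG occurred in 19.8% and 8.76% of the 2 sets, with 10.9% of all windows. The TCF/LEF motif CTTTGA went the other way, with 8.23% and 17.1%, against 14.5% of all windows, as did the MITF motif TCANGTGA, with 1.48% and 5.07% against 4.10%. The E-box CACGTG, which MITF matches can also hold, occurred in 11.6% and 6.22% against 7.47%. The NRF1 motif GCGCATGC (4.85% and 2.76% against 3.12%) and the CCAAT box CCAAT (34.8% and 32.9% against 35.6%) were also higher in the first set. The TATA box TATAAA (4.85% and 7.14% against 11.3%), the AP-1 motif TGANTCA (4.22% and 6.22% against 6.51%), the TEAD motif GGAATG (10.5% and 12.2% against 13.0%) and the cyclic AMP response element TGACGTCA (2.11% and 2.53% against 2.06%) were higher in the second. The part of base composition, and of the number of lists that called each set, in these shares was not tested.

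In the position of the TSS and the number of genes, members lay between the rarely and the commonly called promoters. The TSS was inside the region in 75.1% of members, 43.9% of regions in 1 or 2 lists and 92.7% of those in 7 to 9. More than 1 gene started at 283 members (9.001%), against 5.31% and 15.7%. For 453 members (14.4%) every gene that starts there had another promoter region called in 7 or more lists, at the same or at another start site. This share was 17.5% for regions in 1 or 2 lists, above that of members. This held for 10.8% of the 474 members missing from female ΔEcad lists and for 25.6% of the 434 members called in 2 or 3 of them.

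Calls also varied by whole chromosomes within a line. Ma_1064 called 67.9% of the members on chromosome 12 and 67.0% of those on chromosome 16, but 10.3% on chromosome 8. Ma_1062 called 75.9% on chromosome 10, 29.3% on chromosome 11 and 16.0% on chromosome 16. Ma_1014 was lowest on chromosome 19, with 41.8%, where Ma_1039 called 77.3%. In Ma_1057, chromosome 12 stood out with 41.5% against a lowest value of 10.5% on chromosome 2. The range was narrow in Ma_1007, from 83.8% to 96.2%, and in Ma_1069, from 4.61% to 19.4%.

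Other regions of the same chromosomes moved with the members, most closely in Ma_1064 and Ma_1062. Regions called in all 9 lists, which include no member, had a median percentile in Ma_1064 of 91.6 on chromosome 12, 88.1 on chromosome 16 and 62.4 on chromosome 8. In Ma_1062 it was 84.5 on chromosome 10, 61.3 on chromosome 11 and 56.4 on chromosome 16. Over the 19 autosomes the share of members called correlated with this percentile with a Pearson r of 0.938 (Spearman 0.963) in Ma_1064 and 0.875 (0.779) in Ma_1062, and of 0.168 to 0.662 in the other 7 lines. The points share 1 list each, and no p is given. Copy number of these chromosomes in the lines was not tested.

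**Figure D5:**
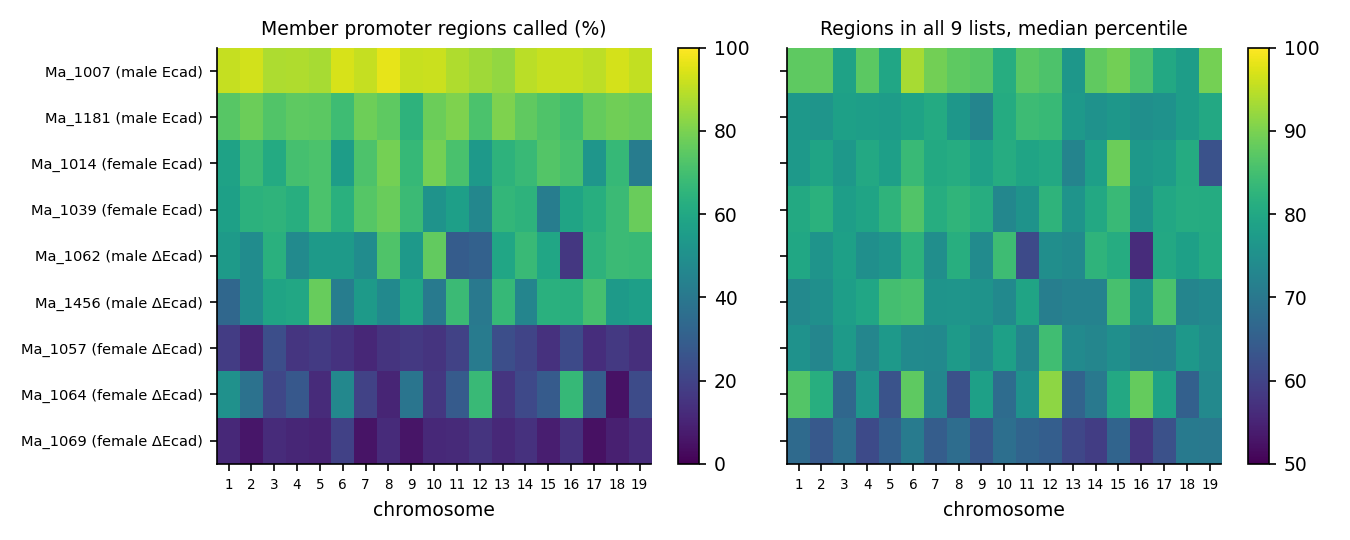
Left, share of variable promoters on each autosome that each line called (colour, 0 to 100%). Right, median within-list percentile (colour, 50 to 100) of regions called in all 9 lists on the same autosome. In Ma_1064 chromosomes 12 and 16 are bright on both sides, and in Ma_1062 chromosomes 11 and 16 are dark on both.

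Some neighbouring variable promoters shared a pattern. No share of all neighbouring members is given, and whether such runs exceeded chance was not tested. With no other promoter region between them, 59 runs of members with the same pattern were found, and only 1 had more than a pair. That run held Ocel1, Nr2f6 and Babam1, within 26.8 kb of chromosome 8, called in the 6 lines other than female ΔEcad. The longest pairs were Mkln1 and Chchd3 over 1663 kb of chromosome 6, Mpdz and Zdhhc21 over 1418 kb of chromosome 4 and Rgs12 and Trmt44 over 557 kb of chromosome 5. The Hoxb genes showed a shared pattern outside these runs, as given next.

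Variable promoters belonged to 3175 of 20722 autosomal protein-coding genes (15.3%). Against this share, genes of mitochondrial complexes, the proteasome and translation were represented by 53 of 206 (25.7%), numbered zinc finger genes by 93 of 385 (24.2%), Hippo pathway and YAP target genes by 10 of 40 and nuclear receptors by 9 of 43 (20.9%). Low shares were found for cadherins and protocadherins (4 of 90), claudins, connexins and desmosomal genes (2 of 55), keratins (2 of 49), ion channels (10 of 183) and olfactory and vomeronasal receptors (8 of 1412). Most genes of these last groups had no promoter peak in any list, for example 73 of 90 cadherins and 1386 of 1412 receptors. Such genes made up 47.0% of all genes. They were 3.88% of the mitochondrial, proteasome and translation list, 19.5% of numbered zinc finger genes, 20% of Hippo genes and 27.9% of nuclear receptors. High and low shares thus also follow how many genes of a list had any promoter peak, and are no measure of variability among genes with one. Pigment cell genes were mostly called everywhere, with 20 of 24 in 7 or more lists. The gene lists were drawn up by symbol, with earlier results of these data known, and their counts carry no test.

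Wnt pathway members ran against the general pattern. The 61 genes had 11 variable promoters of 8 genes, and 7 of these promoters were called in 2 or 3 female ΔEcad lists, against 13.8% of all members. They belong to 4 genes, Tcf7, Lef1, Nkd1 and Sp5. Tcf7 and Lef1 encode the transcription factors through which β-catenin acts, and Nkd1 and Sp5 are feedback targets of the pathway. The Tcf7 region at chr11:52283477-52285534 stood at 84.5 in Ma_1007, 89.5 in Ma_1181, 86.7 in Ma_1057, 38.2 in Ma_1064 and 91.7 in Ma_1069 and had no peak in the other 4 lines. Sp5 was called in the same 5 lines, at 8.60, 86.0, 69.9, 53.5 and 79.4. Lef1 was called in these and in Ma_1456, with 49.3 to 87.5. Nkd1 had 3 variable regions around its start site, the one at chr8:88521425-88525617 again in the same 5 lines, with 17.8 to 93.6. The male Ecad lines and the female ΔEcad lines thus shared most of these promoters, and female Ecad lines and Ma_1062 had none of the 7. The receptor genes Lrp5 and Lgr4 showed the opposite pattern, with no female ΔEcad call. β-Catenin targets were a subject of the study in these lines, so their pattern is no independent evidence.

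Homeobox genes had 9 variable promoters. Hoxb2, Hoxb3 and Hoxb4, which pattern the hindbrain and neck, were called in Ma_1014, Ma_1039 and Ma_1456 alone. Hoxb3 stood at 89.99, 89.1 and 64.0 in these lines, Hoxb2 at 80.6, 80.1 and 56.9, and Hoxb4 at 64.8, 66.3 and 76.9. Pax9, Six4 and Prrx1 were each called in Ma_1007 and Ma_1057, together with other lines. Ma_1062 called 0 of the 9, against 53.7% of all members.

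Transcription factors of development and the neural crest varied too. Foxd2 was called in the 6 other lines and no female ΔEcad line, with percentiles of 54.7 to 86.0. Snai2, a regulator of neural crest migration, stood at 73.6 in Ma_1456, 69.5 in Ma_1039, 65.8 in Ma_1007, 65.0 in Ma_1064, 59.1 in Ma_1014 and 29.6 in Ma_1181. Foxd3, which holds neural crest cells in an early state, was called in Ma_1014, Ma_1039, Ma_1456, Ma_1057 and Ma_1064 and reached 94.5 in Ma_1456. Tbx3 was called in Ma_1007, Ma_1181 and Ma_1456, and Zic2 in Ma_1007, Ma_1181 and Ma_1069. These genes shared no single pattern.

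Of the pigment cell genes, Kit, Ednrb and Myo5a had variable promoters. Kit, the receptor on which melanocytes depend for survival, had a variable region beside its start site in Ma_1007, Ma_1181, Ma_1039 and the 3 female ΔEcad lines, with values from 38.7 to 84.8. Ednrb, the endothelin receptor of melanoblasts, was called at 58.1 in Ma_1181, 68.1 in Ma_1057 and 71.8 in Ma_1069 and in no other line. Myo5a, a motor that carries melanosomes, stood at 29.7 in Ma_1007, 56.4 in Ma_1039 and 9.13 in Ma_1062. Its gene has another promoter region called in 7 or more lists.

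Interferon and antigen presentation genes had 16 variable promoters of 15 genes. The female Ecad lines called 93.8% of them each, Ma_1007 87.5%, and the female ΔEcad group, Ma_1057, Ma_1064 and Ma_1069, called 6.25%, 31.3% and 0%. The other male Ecad line, Ma_1181, called 56.3%, below its 75.1% of all members. The male ΔEcad lines Ma_1062 and Ma_1456 called 62.5% each, above their 53.7% and 56.0% of all members. Ifit2, induced by interferon, was called at 72.1 in Ma_1014, 81.8 in Ma_1039, 59.1 in Ma_1062, 89.1 in Ma_1456 and 48.7 in Ma_1064. Stat5b, a transcription factor of cytokine signalling, was called in the 6 other lines, with values of 13.2 to 75.9, and so was Ifitm2, a membrane protein gene that limits virus entry, with 24.9 to 71.5. Over all members Ma_1014, Ma_1039, Ma_1007, Ma_1057, Ma_1064 and Ma_1069 called 66.7%, 63.4%, 90.4%, 17.2%, 29.2% and 10.5%, in this order.

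Cytokine and receptor genes differed in sequence and in pattern. Their 21 variable promoters had a median CpG ratio of 0.272, and Ma_1057 called 52.4% of them, against 17.2% of all members. Ma_1069 called 33.3% of them against 10.5%, Ma_1064 23.8% against 29.2%, Ma_1062 47.6% against 53.7% and Ma_1456 33.3% against 56.0%. Il33, an alarmin, stood at 91.8 in Ma_1007, 85.7 in Ma_1456, 79.1 in Ma_1064 and 72.4 in Ma_1057, and at 12.4 and 7.19 in Ma_1181 and Ma_1062. Il6ra, a subunit of the interleukin receptor, reached 90.5 in Ma_1069. Mitochondrial, proteasome and translation genes lay at the other end, with a median ratio of 0.807. Both male Ecad lines called 96.2% of their 53 variable promoters and Ma_1069 called 0%, against 90.4% in Ma_1007, 75.1% in Ma_1181 and 10.5% in Ma_1069 over all members. Ma_1057 called 13.2% and Ma_1064 32.1% of the 53, near the 17.2% and 29.2% that they called of all members. The respiratory chain assembly factor gene Ndufaf3 was called in the 6 other lines, with 58.7 to 79.7, and Psmd11, a proteasome subunit gene, in these except Ma_1062 and in Ma_1064.

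Hippo pathway and YAP target genes had 11 variable promoters. F3, the tissue factor gene, was called at 84.1 in Ma_1007, 95.7 in Ma_1181, 34.4 in Ma_1039 and 90.5 in Ma_1062. Fat1, an atypical cadherin, was called in Ma_1007, Ma_1181, Ma_1014, Ma_1062 and Ma_1069, with 50.3 to 93.1. Wwc2, an upstream regulator of the LATS kinases, and Ccn2, a YAP target, were each called in the 4 Ecad lines and Ma_1062. Crim1 was called in the 4 Ecad lines alone, at 48.3 to 75.3. No female ΔEcad line called more than 36.4% of the 11, and Ma_1456 called 27.3%. In Ma_1069 the share was 36.4%, against 10.5% over all members, in Ma_1057 and Ma_1064 it was 18.2% each, against 17.2% and 29.2%, and in Ma_1456 all members gave 56.0%.

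Ligand and receptor genes of other pathways were called in mixed sets of lines. Tgfb1, the prototype TGF-β ligand, was called in the female Ecad and male ΔEcad lines and in Ma_1007, with 47.1 to 84.2. Gdf15, a stress-induced member of the same family, reached 97.7 in Ma_1181 and 98.1 in Ma_1062. Pdgfa stood at 93.0 in Ma_1456 and 24.8 in Ma_1064, and the insulin-like growth factor receptor gene Igf1r was called in the 6 other lines, with 31.4 to 84.1. Of the nuclear receptors, Nr2f6 was called in the 6 other lines, with 60.4 to 89.96, and Nr2f1 in the male Ecad and female ΔEcad lines and in Ma_1456, with 12.2 to 76.1. The retinoic acid receptor gene Rara and the thyroid hormone receptor gene Thra each had another promoter region called in 7 or more lists.

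Cell adhesion genes had few variable promoters. The 4 members on the list of cadherins and protocadherins, which did not hold Fat1, were protocadherins. None was called in a female ΔEcad line, which held for 60.2% of all members. Pcdh18 ranged from 5.11 in Ma_1039 to 79.5 in Ma_1007, and Pcdh17 and Pcdh9 were called in Ma_1007, both female Ecad lines and 1 male ΔEcad line each. Of the integrins, Itgb5 stood at 69.9 in Ma_1456 and 71.6 in Ma_1064 and Itgb8 at 69.8 and 63.3 in the same lines. Gjc1, a connexin gene, was called in 4 lines without any female ΔEcad line. The list of ribosomal protein symbols matched 8 member genes, but 5 of them are the kinase genes Rps6ka2, Rps6ka4, Rps6ka5, Rps6kb2 and Rps6kc1.

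The width limit left out 9 wider promoter regions found in 3 to 6 lists. Just inside it lay regions at Gsta3 (9899 bp), Gata2 (9385 bp) and F3 (9288 bp), called in 4, 3 and 4 lists. Just outside it lay regions at Met (10082 bp, 5 lists), Egfl7 (10975 bp, 3 lists) and Cdkn2a (11299 bp, 5 lists). By number of lists, 712 members were called in 3 lists and 962 promoter regions in 2, and 968 members were called in 6 lists and 918 regions in 7.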

How the data were processed

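H3K27ac ChIP–seq libraries of 9 mouse melanoma cell lines were deposited as 1 peak list per line, without pooling. Reads had been aligned by the authors to GRCm38 (mm10) with Bowtie2, and the submitters' processing notes name Bowtie2 2.4.5, MACS2 2.2.7.1 and deepTools 3.5.1.0.0 without saying which served for which step. Per the file layout, the deposited columns are a peak score, a fold enrichment (ratio), a −log10 p-value, a −log10 q-value and the summit offset. The control library of each list and the calling settings are not given in the sources used here. The lowest deposited −log10 q was 5.00. The 4 input libraries were not analysed here. Lists of peaks carry no read counts, so that depth is unknown and no counting interval is given. A deeper library can give a longer list.

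Members were found as stated above, with 20722 autosomal protein-coding genes (56288 transcripts) of GENCODE M21. Of the autosomal peaks, 0 ran past a chromosome end of the reference. The strength of a member in a list is the percentile of its highest −log10 q. The Schwann cell marker list is not reported here. Lines were the replicates. Nothing pairs lines across groups, and each line gave 1 list. Percentages of members called were compared by exact permutation tests that count choices of lines with as large a difference in size (two-sided), and the overlap index over all partitions (one-sided), with Benjamini-Hochberg adjustment over these 4 tests. The 3 tests added after the data were seen were not adjusted. Members, gene lists and tests were chosen with earlier results of these data known. Named genes are the 12 strongest members, up to 5 leading members of each separating count, 2 of each of the 6 most frequent patterns, up to 5 of each of 23 gene lists, those nearest the width limit and the 4 longest runs. The other members of a list named in the text were picked after their values were seen. Alternatives changed list length, peak strength, required overlap, TSS distance (500 bp), width limit, transcripts used and lines included. Scripts ran in Python 3.11.15 with numpy 2.4.6, pandas 2.3.3 and scipy 1.17.1 and were tested on simulated lists.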

Additional observations from a re-analysis of the deposited data

Results flagged for a closer look

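Values were checked for a line that stood apart from the others of its group, in 132 groups of 4 to 6 values, and 6 such lines were found. Chance alone gives about 1 in 20. In the 6 lines other than female ΔEcad, the excess of promoter over distal shares was 41.3 points in Ma_1181, with 7.25 to 18.9 in the other 5. Ma_1181 called 75.1% of variable promoters but the lowest share of distal regions among these 6 lines, 33.8%. In the same 6 lines the percentile at Lgi4 was lowest in Ma_1014, at 83.1, and that at Nr2f6 highest in Ma_1007, at 89.96. In the 4 male lines the percentile at Cdadc1 was lowest in Ma_1181, at 31.1, and that at Csk highest in Ma_1007, at 89.9. In the 4 Ecad lines the percentile at Plxna1, a semaphorin receptor gene, was highest in Ma_1007, at 73.0.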

How the results depend on the processing

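No tested difference changed direction under any alternative. Differences between the shares of members called kept their side of the threshold under 500 bp, no width limit and basic transcripts. With equally long lists the ΔEcad minus Ecad difference was −31.6 points and no longer passed, and with peaks over at least 50% of a region it was −40.0 points and did not pass either. Leaving out 1 line gave −34.6 to −46.2 points for ΔEcad minus Ecad and −44.0 to −58.6 points for female ΔEcad minus other lines, and both had adjusted exact p-values up to 0.0714, no longer passing without any 1 of the 6 lines other than female ΔEcad. In these cases female ΔEcad minus other lines stood at 0.0179, the smallest exact p that 3 against 5 lines allow, while ΔEcad minus Ecad had exact p-values of 0.0286 to 0.0357. Female minus male ranged from −24.1 to −39.5 points, and the overlap difference from 0.0329 to 0.231, passing when a female ΔEcad line was left out. The 3 results added later kept their calls, with leave-one-out ranges of −34.0 to −44.4 points, −0.0859 to −0.158 and −14.5 to −39.0 points.

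Counts moved more. There were 4995 members when peaks had to cover 50% of a region, and 3266 to 3817 without 1 line. With equally long lists 3 members were called in all ΔEcad and no Ecad lists, 69 in all Ecad and no ΔEcad lists, 3 in all female lists alone, 12 in female ΔEcad lists alone and 312 in the other lists alone. With the stronger part of each list these were 0 for female lists alone, 10 for female ΔEcad lists alone and 245 for the other lists alone. With 50% cover they were 0 for female, 141 for male and 8 for female ΔEcad lists alone. Leaving out 1 line gave 1 to 6, 144 to 298, 1 to 6, 57 to 140, 0 to 22 and 498 to 950 for ΔEcad, Ecad, female, male, female ΔEcad and other lists alone. Each such count rests on fewer lists, so that some rise by construction. The highest, 950, came without Ma_1064. The count of 5 for female ΔEcad lists alone went to 22 without Ma_1007 and, by construction, to 0 without any 1 of the 3, since the rule asks for 3 lists. The median percentile was 52.2, 66.8 and 63.6 with equally long lists, the stronger part and 50% cover. In the first 2 weak peaks are gone by construction, and the cause of the third was not tested. It was 39.5 to 44.0 without 1 line. The median CpG ratio stayed between 0.747 and 0.793.

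No paired analysis was possible because the labels carry no replicate numbers. A region without a call is limited by an unknown depth, and calls moved with whole chromosomes most closely in Ma_1064 and Ma_1062.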
